A study of Mus musculus with 24 samples.

Results

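The genes described here are 34: known targets of the tumour suppressor p53, and Trp53, the mouse gene for p53 itself. They were taken by name from a fixed list of known targets, found in the mouse annotation, and measured as the sum of their transcripts' reads in each of 24 RNA-seq libraries. All 34 were found among the 35519 genes with a summed value, and all 34 passed the filter on low counts in both organoids and tissue. The rule takes genes by name and uses no measured value, but it was set with earlier results of these data known.

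p53 is a transcription factor that is held at low levels by the ubiquitin ligase Mdm2, itself a p53 target, and that accumulates after DNA damage or other stress. It then raises genes that stop the cell cycle, repair DNA or kill the cell, and through the cyclin-dependent kinase inhibitor p21, made by Cdkn1a, it lowers cell cycle genes bound by the DREAM repressor complex. Brca1 is a DNA repair protein needed for homologous recombination, and its loss in dividing cells is known to leave breaks that p53 responds to.

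The study asked how loss of 1 or both copies of Brca1 affects prostate cells and their dependence on androgen. Organoids, hollow balls of epithelial cells, were grown in Matrigel from the anterior prostate lobes of mice 3 months old, in a medium with EGF, Noggin, R-spondin, the TGF-beta receptor inhibitor A83-01, Y27632 and B27. They carried the genotype labels WT, HET or KO for Brca1 and were cultured with or without dihydrotestosterone (DHT), the androgen that activates the androgen receptor. Each of these 6 groups has 3 libraries, and anterior lobe tissue of each genotype, taken without culture, has 2. The Brca1 allele, the deleted exons, the Cre driver and the age of the mice behind the tissue libraries are not given in the sources used here. Biological replicates is the series' own term, but separate animals or cultures are not named, and the p-values therefore cover the spread between these samples only, which may be technical.

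The organoid libraries held 11965815 to 58445041 reads assigned to genes (median 43670325) and the tissue libraries 30895270 to 46222580. WT with DHT replicate 1, HET without DHT replicate 1 and KO without DHT replicate 1 had the fewest reads among organoids, and 28.09% of the reads of the first came from Lars2. Tissue WT replicate 2 stood apart, with 11.28% of its reads from 9530053A07Rik, as did tissue HET replicate 1. Their summed seminal vesicle markers reached 182200 and 42390 CPM (read counts scaled to a common library size), against 2.96 to 13.4 in the other tissue libraries and at most 0.113 in organoids. Epithelial markers summed to 4977 to 5976 CPM in organoids. The 5 endothelial markers summed to 1.92 to 12.04 CPM in organoids and to 57.4 to 68.6 CPM in tissue. From 1 to 3 of these 5 were detected in an organoid library, and Emcn was at 0 in every one.

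Sets of markers for 2 other cell types moved with the HET label in organoids. Stromal and smooth muscle markers (9 genes) summed to 8.64 to 13.9 CPM in the 6 HET libraries and to 22.1 to 42.1 CPM in the 12 WT and KO libraries, with no overlap. Of these 9, from 5 to 8 were detected in an organoid library, and Des was at 0 in all but HET without DHT replicate 3. Leukocyte markers (7 genes) summed to 67.4 to 107.6 CPM in HET libraries against 41.7 to 67.2 CPM elsewhere, with Adgre1 and Lyz2 at 0 in every organoid library but HET without DHT replicate 3. Their part in any HET result below was not tested. In bulk RNA, fewer cells of a type and less RNA per cell cannot be told apart.

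Brca1 (chr11:101488764-101551955, GRCm38) was measured first, as a check of the labels. With DHT its level was 13.6, 13.2 and 14.3 CPM in WT, 17.8, 14.7 and 18.04 CPM in HET, and 11.8, 9.64 and 11.2 CPM in KO organoids. Without DHT it was 13.2, 11.2 and 14.2 CPM in WT, 20.2, 18.5 and 17.2 CPM in HET, and 13.1, 10.8 and 10.2 CPM in KO. HET libraries thus held the most Brca1 RNA in both media, and KO libraries were not near 0. HET exceeded WT without DHT by a log2 change of 0.53 (edgeR adjusted p = 0.0147), and this call was lost without HET replicate 1, HET replicate 2 or WT replicate 2 (adjusted p 0.0518 to 0.0873). KO lay below HET by -0.63 with DHT (adjusted p = 0.0101, lost without HET replicate 3 or KO replicate 2, 0.0523 and 0.062) and by -0.71 without DHT (adjusted p = 0.00542, kept without any 1 library and 0.275 when only those groups were fitted). In tissue the level was 2.19 to 4.16 CPM over all 6 libraries. Since the deleted part is not known, reads over the whole gene are a weak check, and HET and KO below stand for libraries labelled so.

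Few p53 targets passed the test between Brca1 genotypes, and how many did depended on the model. Of the 34 members, 1 rose and 1 fell in HET against WT organoids with DHT, where 4.03% of the 15427 genes tested rose and 3.47% fell at an adjusted p under 0.05. KO against WT with DHT had 2 members that rose and 0 that fell, against 2.53% and 1.58% of all genes. Without DHT, 1 member rose and 2 fell in HET against WT (background 4.52% and 3.29%), and 1 rose and 0 fell in KO against WT (background 2.83% and 1.98%). A count of 1 or 2 among 34 is near what these background shares give. When the 3 shallowest organoid libraries named above were left out, the members called in these 4 comparisons were 3, 3, 4 and 1 (8.55%, 6.005%, 8.66% and 5.66% of all genes). DESeq2 called 6, 5, 3 and 3 of the 34 (10.04%, 5.68%, 10.27% and 7.36% of all genes), and edgeR with the share of mitochondrial reads as a covariate called 11, 9, 8 and 4 (20.9%, 10.9%, 16.4% and 11.9% of all genes). The 8 calls fall on 4 genes: Zfp365 higher in all 4 comparisons, Apaf1 lower in HET in both media, Btg2 lower in HET without DHT, and Fas higher in KO with DHT. HET and KO are each set against the same WT libraries, so their differences from WT are not independent of each other.

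Between KO and HET, edgeR called 0 members in either medium. With DHT, 9 members had an unadjusted p under 0.05 (7 higher in KO, 2 lower), a share to set beside 14.1% of all genes, and the background of calls was 1.79% higher and 1.75% lower. DESeq2 called 2 there, Tnfrsf10b and Gadd45a. Without DHT, 3 had an unadjusted p under 0.05, all higher in KO, against 12.0% of all genes, with a background of 1.35% higher and 1.56% lower, and DESeq2 called 1, Tnfrsf10b. Without the 3 shallowest libraries, edgeR called 3 with DHT and 0 without (6.74% and 2.14% of all genes).

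The size of the changes was small across the list. With DHT, the median log2 change of the 34 members was 0.12 in HET against WT and 0.20 in KO against WT, with 23 and 28 members above 0, while the median over all genes was -0.0037 and -0.0068. Without DHT these medians were -0.08 and 0.05, with 12 and 20 members above 0, against 0.0028 and 0.0023 over all genes. KO against HET gave 0.03 with DHT and 0.15 without, with 24 and 26 members above 0, against 0.0053 and 2.03e-05 over all genes. Over the settings run, the medians with DHT ranged from 0.03 to 0.17 in HET against WT, from 0.11 to 0.24 in KO against WT and from -0.0048 to 0.14 in KO against HET. Without DHT they ranged from -0.12 to 0.0087 in HET against WT, from 0.02 to 0.07 in KO against WT and from 0.09 to 0.17 in KO against HET.

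**Figure D1:**
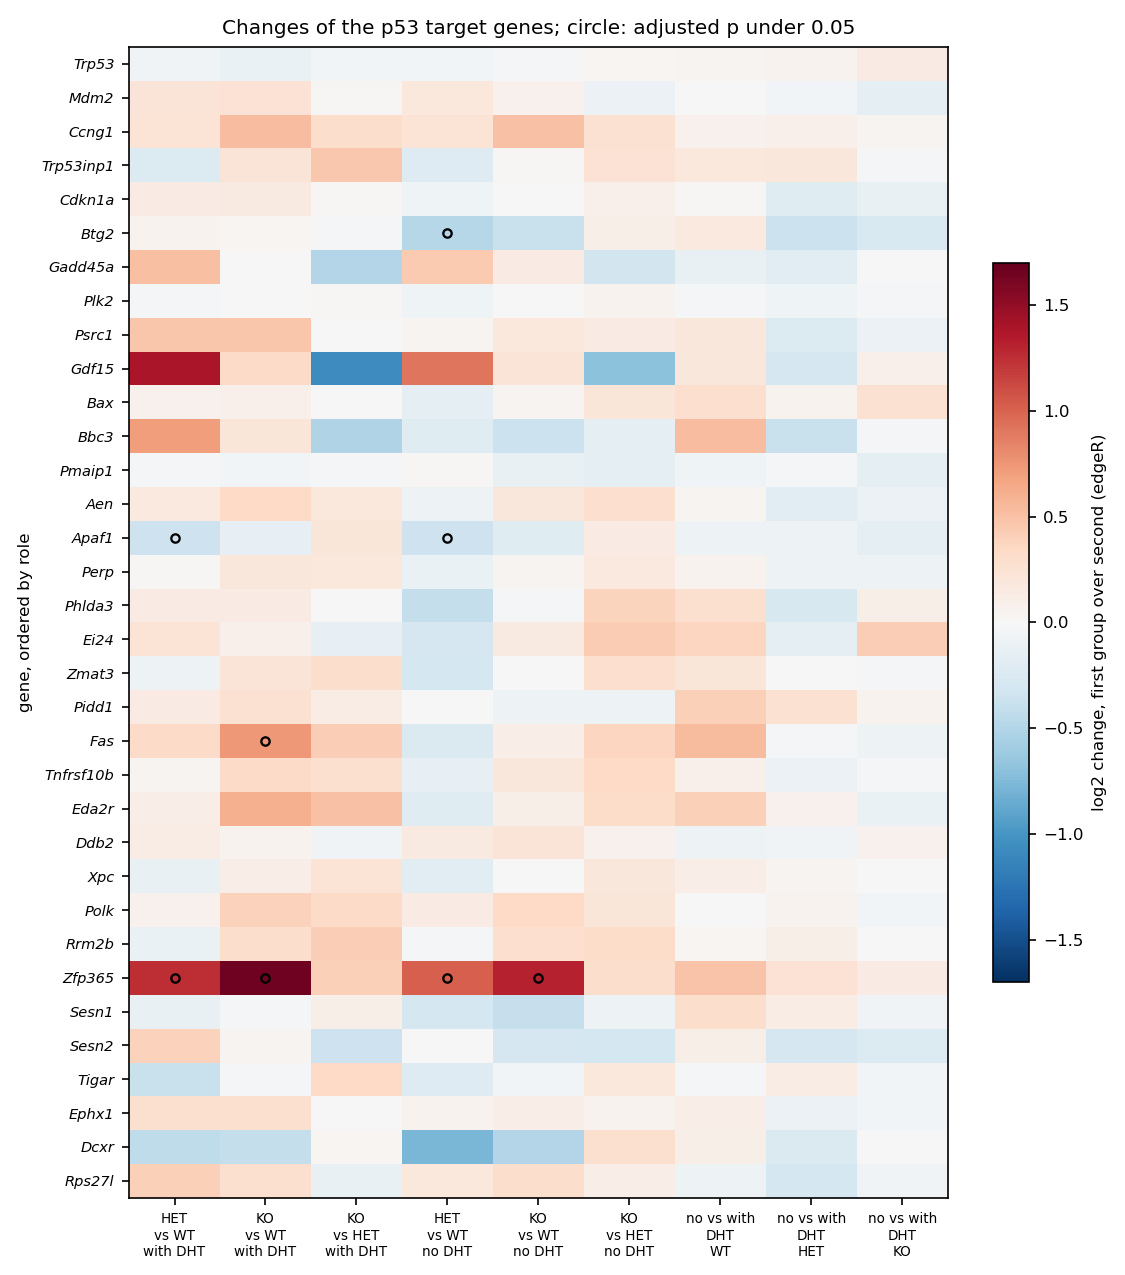
Log2 changes of the 34 p53 targets (rows, by role) in 9 organoid comparisons (columns), coloured from lower to higher; a circle marks an adjusted p under 0.05. Circles stand at 8 places, 4 of them Zfp365.

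Trp53 (chr11:69580359-69591873), the source of p53, lay at 73.2, 84.7 and 83.5 CPM in WT, 78.7, 78.0 and 74.9 CPM in HET and 71.0, 74.3 and 79.2 CPM in KO organoids with DHT. Without DHT it lay at 86.9, 88.8 and 75.0 CPM in WT, 68.6, 77.9 and 95.8 CPM in HET and 73.1, 81.6 and 92.7 CPM in KO. The genotypes overlapped in both media. The log2 change was -0.06 in HET and -0.11 in KO against WT with DHT (95% intervals -0.32 to 0.19 and -0.36 to 0.15), and -0.05 and -0.02 without DHT (intervals -0.30 to 0.21 and -0.27 to 0.24). KO against HET gave -0.05 with DHT and 0.03 without. Trp53 lies 31.91 Mb from Brca1 on chromosome 11, which also holds the members Dcxr (19.24 Mb away) and Ccng1 (60.74 Mb away).

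Mdm2 (chr10:117688875-117710758), the ligase that degrades p53 and the feedback arm of the pathway, lay at 130.8, 131.0 and 130.2 CPM in WT with DHT. It lay at 146.8, 142.8 and 165.8 CPM in HET and at 153.2, 163.2 and 147.2 CPM in KO in that medium. Every HET and KO library was above every WT library with DHT. The share of all genes that separate organoid groups in this way was not worked out. This and the later statements of no overlap therefore only describe the values. The log2 changes of 0.22 (95% interval -0.07 to 0.50) and 0.24 (-0.04 to 0.53) did not pass the test (edgeR adjusted p = 0.441 and 0.512).

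Without DHT, Mdm2 lay at 136.2, 117.9 and 136.0 CPM in WT, 180.6, 139.5 and 120.3 CPM in HET, and 156.8, 138.6 and 116.6 CPM in KO. These overlapped, with log2 changes against WT of 0.17 (-0.11 to 0.46) and 0.08 (-0.21 to 0.36). KO against HET gave 0.03 with DHT and -0.10 without. The other regulators are Ccng1, a cyclin that brings a phosphatase to Mdm2, and Trp53inp1, a stress protein that promotes p53 phosphorylation. All 3 were above 0 in KO against WT with DHT, from 0.22 (Trp53inp1) to 0.52 (Ccng1), and in HET against WT they ran from -0.23 (Trp53inp1) to 0.23 (Ccng1). Neither passed the test in any comparison.

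Among the arrest genes, Cdkn1a (chr17:29090976-29100727), which encodes p21, was the most abundant. With DHT it lay at 427, 597.8 and 544.2 CPM in WT, 528.6, 612.3 and 590.4 CPM in HET and 541.2, 619.6 and 590.8 CPM in KO. Without DHT it lay at 516, 607.1 and 469.4 CPM in WT, 545.3, 462.7 and 499.7 CPM in HET and 510.9, 542.2 and 544.5 CPM in KO. The groups overlapped throughout, and the lowest value came from the WT library with the fewest reads. The log2 changes against WT were 0.14 in HET (95% interval -0.13 to 0.41) and 0.16 in KO (-0.11 to 0.42) with DHT, and -0.08 (-0.35 to 0.19) and 0.0045 (-0.26 to 0.27) without. KO against HET gave 0.02 with DHT and 0.08 without.

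Btg2 (chr1:134075170-134079120), an antiproliferative protein that recruits an mRNA deadenylase, fell in HET organoids without DHT. It lay at 202, 203.4 and 176.4 CPM in WT, at 126.3, 142.7 and 146.6 CPM in HET and at 124.5, 160.3 and 160.8 CPM in KO. Every HET and KO library was below every WT library in this medium. The log2 change in HET was -0.49 ± 0.12 (SE, n = 3 against 3, edgeR adjusted p = 0.0198), a call lost without HET replicate 1 (0.0888), HET replicate 2 (0.0558), WT replicate 1 (0.0888) or WT replicate 2 (0.0867). In KO the change of -0.38 did not pass (adjusted p = 0.0956 by edgeR), though DESeq2 called it. With DHT the 3 genotypes overlapped, at 172 ± 16.5, 179 ± 19.8 and 177 ± 14.5 CPM (SD, n = 3).

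The remaining arrest genes are Gadd45a, a stress protein that binds cell cycle kinases, Plk2, a polo-like kinase, and Psrc1, a microtubule-binding protein. None passed edgeR's test. Gadd45a, the member with the lowest p among those not called in HET against WT in either medium, lay at 106.1, 102.3 and 121.9 CPM in HET with DHT against 76.6, 78.7 and 77.3 CPM in WT and 74.0, 79.8 and 79.9 CPM in KO. The HET libraries were above all others in this medium, with a log2 change against WT of 0.51 (adjusted p = 0.0618). Psrc1 gave 0.47 in both HET and KO against WT with DHT (adjusted p = 0.0696 and 0.0998), its lowest library, at 36.4 CPM, being the WT library with the fewest reads. DESeq2 called Psrc1 in both of these comparisons and Gadd45a in HET.

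Gdf15, a secreted stress cytokine, is described after its values were seen, as the member with the widest range among organoid libraries (highest over lowest CPM 7.35, against 1.25 for Plk2 at the other end). With DHT it lay at 17.2, 19.6 and 15.6 CPM in HET, 4.28, 8.48 and 6.68 CPM in WT, and 6.33, 8.88 and 9.78 CPM in KO. HET stood above the other genotypes without overlap, and the log2 change against WT was 1.39 ± 0.46 (SE, edgeR adjusted p = 0.0840, called by DESeq2). Without DHT, HET spread from 7.11 to 23.1 CPM and KO from 3.14 to 13.9 CPM, both overlapping the WT range of 5.25 to 9.47 CPM.

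**Figure D2:**
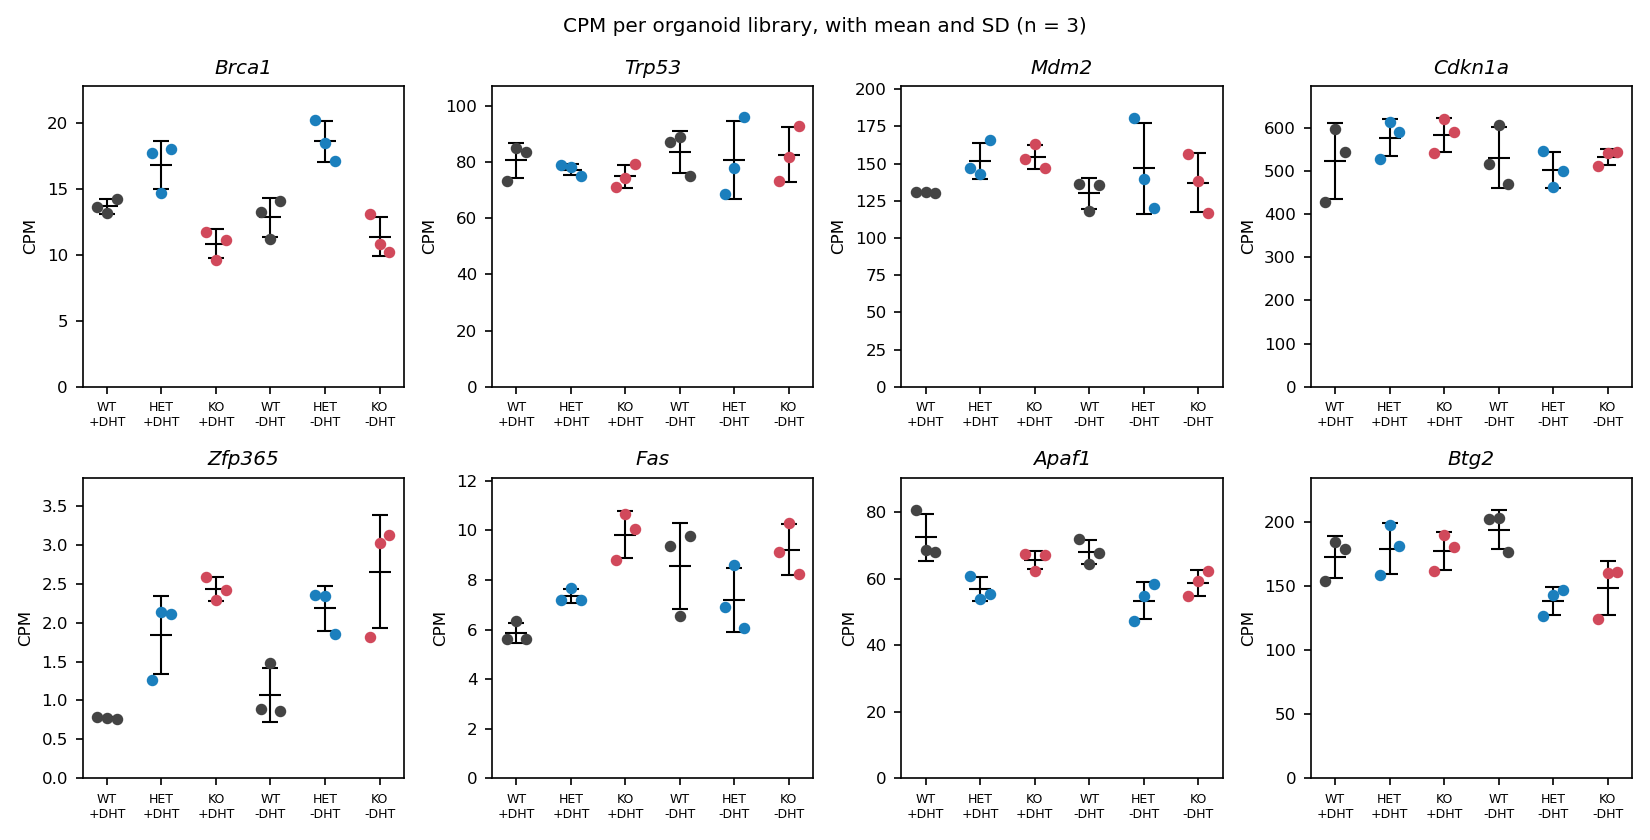
CPM in each organoid library (points) of Brca1, Trp53, Mdm2, Cdkn1a, Zfp365, Fas, Apaf1 and Btg2, by genotype label and DHT, with the mean and SD (bars, n = 3). Zfp365 in HET and KO lies above WT in both media, while Trp53 and Cdkn1a overlap.

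The 10 apoptosis members hold mitochondrial death proteins (Bax, Bbc3 or Puma, Pmaip1 or Noxa), the apoptosome scaffold Apaf1, the nuclease Aen, the caspase-activating scaffold Pidd1, the Akt inhibitor Phlda3, the membrane protein Perp, the endoplasmic reticulum protein Ei24 and the RNA-binding protein Zmat3. Apaf1 (chr10:90989311-91082770) was the only one to pass the test. With DHT it lay at 80.6, 68.6 and 68.1 CPM in WT, 60.9, 54.0 and 55.6 CPM in HET and 67.4, 62.4 and 67.1 CPM in KO. Without DHT it lay at 71.9, 64.6 and 67.6 CPM in WT, 47.3, 54.8 and 58.3 CPM in HET and 54.7, 59.3 and 62.3 CPM in KO. All HET libraries were below all WT libraries in each medium, with KO between or overlapping.

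Apaf1 fell in HET by 0.35 on the log2 scale with DHT (SE 0.097, edgeR adjusted p = 0.0382) and by 0.35 without (SE 0.097, adjusted p = 0.0367). These are weak calls. The first was lost without any 1 of the 6 libraries (adjusted p 0.0534 to 0.166), and the second was kept only without HET replicate 3 (0.0230) and otherwise reached 0.0612 to 0.159.

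Against WT, the 10 apoptosis members, Apaf1 included, showed no direction that held in both media. In HET against WT, 7 of the 10 were above 0 with DHT, up to 0.71 (Bbc3), and 1 of 10 without DHT, where they ran from -0.40 (Phlda3) to 0.03 (Pmaip1). In KO against WT, 8 of 10 were above 0 with DHT (-0.14 to 0.34, Aen highest) and 4 of 10 without. In KO against HET the count above 0 was 7 of 10 in each medium.

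Of the 3 death receptors, Fas (chr19:34290666-34327772), the receptor for Fas ligand, rose in KO organoids with DHT. It lay at 5.63, 6.34 and 5.64 CPM in WT, 7.18, 7.68 and 7.20 CPM in HET and 8.81, 10.6 and 10.04 CPM in KO. The 3 genotypes did not overlap in this medium. The log2 change was 0.74 ± 0.16 in KO against WT (SE, n = 3 against 3, edgeR adjusted p = 0.0150), and it was lost without KO replicate 2 (0.0912), KO replicate 3 (0.0687) or WT replicate 3 (0.0952). Without DHT, Fas lay at 9.35, 6.55 and 9.75 CPM in WT, 6.89, 8.60 and 6.07 CPM in HET and 9.13, 10.3 and 8.24 CPM in KO, all overlapping.

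Eda2r, a receptor for ectodysplasin A2, and Tnfrsf10b, the TRAIL receptor, came next in KO against WT with DHT. Eda2r lay at 67.0, 66.1 and 56.0 CPM in KO against 45.0, 40.5 and 38.7 CPM in WT, a log2 change of 0.61 (edgeR adjusted p = 0.0513), and Tnfrsf10b gave 0.32 (adjusted p = 0.0801). DESeq2 called both. Tnfrsf10b in KO without DHT, at 42.2, 38.0 and 39.4 CPM, was above HET at 32.8, 30.6 and 31.0 CPM without overlap, with a log2 change of 0.34 (edgeR adjusted p = 0.0788). All 3 receptors were above 0 in KO against WT and in KO against HET in both media, and in HET against WT they were all above 0 with DHT (0.05 to 0.32) and all below 0 without (-0.25 to -0.14).

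Zfp365, a zinc finger protein that helps stalled replication forks to recover, is the member called in all 4 comparisons with WT, and it is also the least abundant. Its start region is shown with that of Cdkn1a, the classical p53 target, since these are among the 4 of 26 members with a RefSeq promoter window that hold a match to the p53 consensus. The consensus is a pair of 10-base half-sites, each built around C, 2 bases of A or T, and G. A match was searched for on both strands, with at most 2 mismatches in all and at most 1 base between the half-sites. Each sequence is the 250 bases before the start site whose window holds the match, 5′ to 3′ on the gene's strand, from RefSeq (GRCm38.p6), with the matched half-sites in capitals. Cdkn1a covers chr17:29090729-29090978 on the plus strand and Zfp365 chr10:67912663-67912912 on the minus strand.
Cdkn1a: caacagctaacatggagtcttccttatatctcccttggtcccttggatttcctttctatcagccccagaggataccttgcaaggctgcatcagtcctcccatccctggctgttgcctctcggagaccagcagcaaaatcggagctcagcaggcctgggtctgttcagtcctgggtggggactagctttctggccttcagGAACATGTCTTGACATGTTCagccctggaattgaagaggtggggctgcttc
Zfp365: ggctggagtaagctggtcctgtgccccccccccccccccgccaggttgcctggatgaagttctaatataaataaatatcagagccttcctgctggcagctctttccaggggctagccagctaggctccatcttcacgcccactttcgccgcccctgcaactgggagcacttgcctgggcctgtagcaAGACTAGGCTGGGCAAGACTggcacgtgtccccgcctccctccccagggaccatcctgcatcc

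The Cdkn1a match lies at chr17:29090928-29090947, from -51 to -32 bases of that start, with 1 mismatch. Cdkn1a has another RefSeq start, whose window (chr17:29093519-29093818) holds no match. The Zfp365 match lies at chr10:67912706-67912725, from -63 to -44, with 2 mismatches. The other 2 matches are in Bax and Rps27l, shown for comparison, with a lower-case letter for the base between half-sites. Bax has its match at chr7:45467079-45467099 on the minus strand with 2 mismatches, and Rps27l at chr9:66946296-66946315 on the plus strand with 1 mismatch. Another window of Rps27l (chr9:66945836-66946135) holds none.
Bax: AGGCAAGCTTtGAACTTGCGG
Rps27l: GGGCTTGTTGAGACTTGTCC

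Such matches stood in 102 of 27025 genes with a window (0.377%) and in 15.38% of the members with one. The list was drawn from known p53 targets, so this share describes the list. Of the 4 members with a match, edgeR called Zfp365 and none of the other 3, and a match in these letters does not say that p53 bound there. Pmaip1, Trp53inp1, Zmat3, Perp, Tnfrsf10b, Ddb2, Xpc and Rrm2b had no window.

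Zfp365 (chr10:67886103-67912662) lay at 0.788, 0.769 and 0.766 CPM in WT organoids with DHT. It lay at 1.26, 2.14 and 2.12 CPM in HET and at 2.59, 2.29 and 2.43 CPM in KO in that medium. The 3 genotypes did not overlap. The means were 0.774 ± 0.0118, 1.84 ± 0.499 and 2.43 ± 0.151 CPM (SD, n = 3).

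Without DHT, Zfp365 lay at 0.885, 1.48 and 0.867 CPM in WT, 2.36, 2.35 and 1.85 CPM in HET and 1.82, 3.03 and 3.12 CPM in KO. HET and KO were again above WT without overlap, while overlapping each other. These values rest on 7 to 158 reads a library in organoids, so counting error adds to the spread. The share of a noncoding transcript of the gene in its abundance ran from 0 to 100% between WT libraries with DHT and from 0 to 91.5% between HET libraries without DHT, so reads could not be split stably between its transcripts.

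Against WT, Zfp365 rose with DHT by a log2 change of 1.25 in HET (95% interval 0.64 to 1.86, edgeR adjusted p = 0.0126) and 1.65 in KO (1.05 to 2.26, adjusted p = 0.00220). Without DHT it rose by 1.02 in HET (SE 0.27, adjusted p = 0.0264) and 1.31 in KO (SE 0.27, adjusted p = 0.00804). In KO with DHT the call held without any 1 library (adjusted p 0.00687 to 0.0186), and in KO without DHT it was lost only without WT replicate 1 (0.0516) among the libraries left out. In HET with DHT it was lost without HET replicate 2 (0.0568), HET replicate 3 (0.0559), WT replicate 2 (0.0525) or WT replicate 3 (0.0572), and without DHT it was lost without HET replicate 1 (0.0759), HET replicate 2 (0.0899), WT replicate 1 (0.119) or WT replicate 3 (0.112). When only the 2 groups compared were fitted, both calls without DHT were lost, each with an adjusted p of 0.152.

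The other repair members are Ddb2 and Xpc, which recognise damaged bases for nucleotide excision repair, Polk, a polymerase that copies past lesions, and Rrm2b, a ribonucleotide reductase subunit. None passed the test. All 5 repair members were above 0 in KO against WT with DHT, from 0.06 (Ddb2) to 1.65 (Zfp365), and in KO against HET without DHT all 5 were above 0, from 0.07 to 0.32. Exons of Ddb2 overlap 441 bases of Acp2 on the opposite strand, and without strand information their reads cannot be told apart.

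The metabolic members are the sestrins Sesn1 and Sesn2, which restrain mTORC1 under stress, the glycolysis inhibitor Tigar, the epoxide hydrolase Ephx1 and the carbonyl reductase Dcxr. None passed edgeR's test. Sesn1 without DHT lay at 21.7, 22.6 and 21.8 CPM in WT, 16.8, 19.2 and 17.6 CPM in HET and 16.4, 18.5 and 15.5 CPM in KO. HET and KO were below WT without overlap, with log2 changes of -0.30 (edgeR adjusted p = 0.123) and -0.39 (adjusted p = 0.0515, called by DESeq2). Tigar with DHT gave -0.37 in HET against WT (adjusted p = 0.0667, called by DESeq2). Dcxr had the lowest change of the 34 in HET against WT and in KO against WT in both media, from -0.78 to -0.40.

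Rps27l, a ribosomal protein variant, gave log2 changes against WT of 0.40 in HET and 0.27 in KO with DHT, and of 0.19 and 0.30 without. None passed the test. It belongs to a family of near-identical sequences, so the assignment of its reads is uncertain.

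The HET and KO libraries without DHT differed among themselves in mitochondrial reads, and the members were read in that order. These reads made up 9.43%, 4.54% and 2.42% of reads in HET replicates 1, 2 and 3, and 10.01%, 4.17% and 2.61% in KO. In both groups, 9 of 34 members (26.47%) took the same order as this share, and 12 (35.29%) the opposite order, against 24.5% and 27.0% of all genes. The first share is near the background, and whether the second differs from it was not tested. Ccng1 lay at 713.5, 537.2 and 352.1 CPM in HET and 851.6, 624.8 and 435.9 CPM in KO in the order of the replicate numbers. Bax, which promotes pores in the mitochondrial membrane, lay at 21.8, 27.6 and 45.4 CPM in HET and 21.4, 32.0 and 55.8 CPM in KO.

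The 2 sets differed in base composition. The median GC content of the transcripts was 42.1% for the 9 members in the same order and 58.3% for the 12 in the opposite order, with 44.5% and 55.4% over all genes. Across the 34 members, the log2 ratio of replicate 1 to replicate 3 (0.5 CPM added to each) ran against GC content with a Pearson correlation of -0.77 in HET and -0.86 in KO (Spearman -0.77 and -0.82). Across 15415 genes, which share these same libraries, the Pearson values were -0.61 and -0.66 (Spearman -0.69 and -0.73). Cdkn1a lay near the middle, with log2 ratios of 0.13 and -0.09. The part of GC content in the results without DHT was not tested. With the mitochondrial share as a covariate, the members called without DHT were 8 in HET against WT and 4 in KO against WT, beside the shares of all genes given above.

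**Figure D3:**
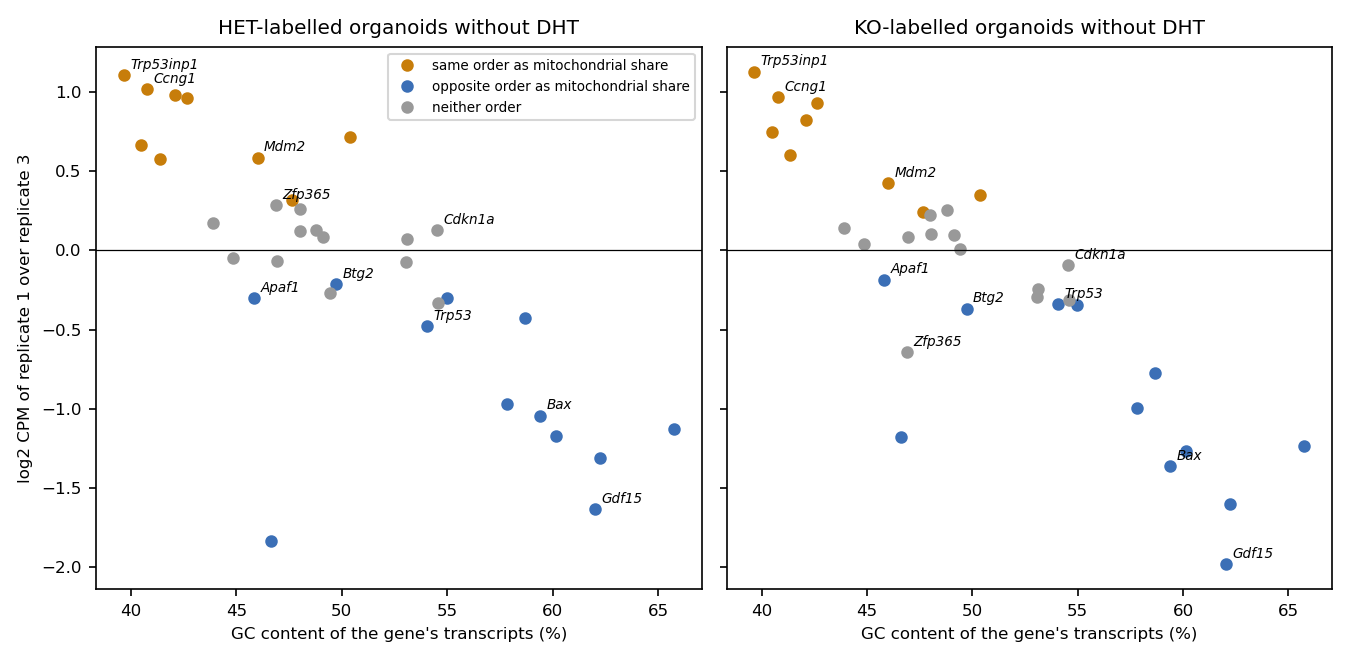
Log2 CPM of replicate 1 over replicate 3 (vertical axis) against the GC content of each member's transcripts in percent (horizontal axis), in HET and KO organoids without DHT. Points fall from left to right in both panels, with Pearson correlations of -0.77 and -0.86.

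In the main fit no member passed the threshold on DHT withdrawal in any genotype, and few of all genes did. In WT organoids edgeR called 0 members (background 0.603% higher and 0.694% lower), with 3 at an unadjusted p under 0.05, against 8.07% of all genes. These were Fas (log2 change 0.54, edgeR adjusted p = 0.183), Sesn1 (0.30, 0.339) and Eda2r (0.40, 0.483), all higher without DHT. In HET, edgeR called 0 (background 0.344% and 0.363%), with 1 at an unadjusted p under 0.05, Btg2 (-0.37, adjusted p = 0.296), against 8.39% of all genes. In KO it called 0 (background 0.194% and 0.363%) and 0 were at an unadjusted p under 0.05, against 7.03%. DESeq2 called 0 in all 3, beside 2.607%, 1.909% and 1.701% of all genes. Counts of 0 beside such low shares do not show whether the members differ from other genes. With the mitochondrial share as a covariate, edgeR called 5 members in WT, beside 12.7% of all genes. That fit called 0 in HET and 0 in KO, beside 2.223% and 2.852%.

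The members' changes on withdrawal were small in each genotype. In WT 26 of 34 members were above 0, with a median of 0.10 against 0.012 over all genes, in HET 12 with a median of -0.06 against 0.025, and in KO 11 with -0.03 against 0.026. Trp53 gave 0.05, 0.07 and 0.14 in WT, HET and KO, Cdkn1a 0.02, -0.20 and -0.13, and Mdm2 -0.01, -0.05 and -0.17, all with 95% intervals that include 0. Among roles, 8 of 10 apoptosis members were above 0 in WT, up to 0.53 (Bbc3), 2 in HET and 4 in KO. All 5 arrest members were below 0 in HET, from -0.37 (Btg2) to -0.07 (Plk2), and 3 of 5 were above 0 in WT.

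The difference in withdrawal response between genotypes was tested as an interaction. edgeR and DESeq2 each called 0 members in HET minus WT, in KO minus WT and in KO minus HET, and edgeR called 0% of all genes higher or lower in each of the 3. At an unadjusted p under 0.05 there were 2 members (2.81% of all genes), 4 members (2.70%) and 0 members (0.979%). The 2 in HET minus WT were Btg2 (-0.54, 95% interval -0.90 to -0.17) and Fas (-0.57), and those in KO minus WT were Fas (-0.63), Btg2 (-0.42), Sesn1 (-0.36) and Eda2r (-0.51). Trp53, Cdkn1a and Mdm2 gave 0.01, -0.22 and -0.04 in HET minus WT, 0.09, -0.15 and -0.16 in KO minus WT, and 0.08, 0.07 and -0.12 in KO minus HET. The median of the 34 was -0.20, -0.14 and 0.04 in the 3 tests.

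Levels can be compared between genes in TPM, a share of all transcripts that corrects for length. In organoids the members spanned a wide range, from Rps27l (mean 572 TPM), Cdkn1a (436 TPM), Perp (421 TPM), Dcxr (293 TPM) and Ccng1 (212 TPM) down to Pidd1 (1.48 TPM) and Zfp365 (0.636 TPM). Mdm2 stood at 79.3 TPM, between Btg2 (88.4 TPM) and Trp53 (66.4 TPM). The ranges of Trp53 (50.3 to 86.1 TPM) and Mdm2 (66.2 to 96.2 TPM) across the 18 libraries overlapped, as did those of Cdkn1a (312.7 to 540.3 TPM) and Perp (360.4 to 493.9 TPM).

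In 12 members every organoid library had more TPM than every tissue library, and in 1, Ddb2, every organoid library had less. Of the 14659 genes tested in both materials, 12.6% lay above and 19.0% below in this way. The 12 include Cdkn1a (12.4 to 152.9 TPM in tissue), Perp (65.3 to 152.5 TPM) and Mdm2 (31.5 to 52.2 TPM). The other 9 are Ccng1, Pmaip1, Plk2, Trp53inp1, Psrc1, Polk, Zmat3, Eda2r and Tnfrsf10b. Culture and tissue differ in cell makeup, with summed stromal markers of 8.64 to 42.1 CPM in organoids and 659.1 to 4095 CPM in tissue, and TPM are shares of all RNA. The material was therefore described without a test.

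**Figure D4:**
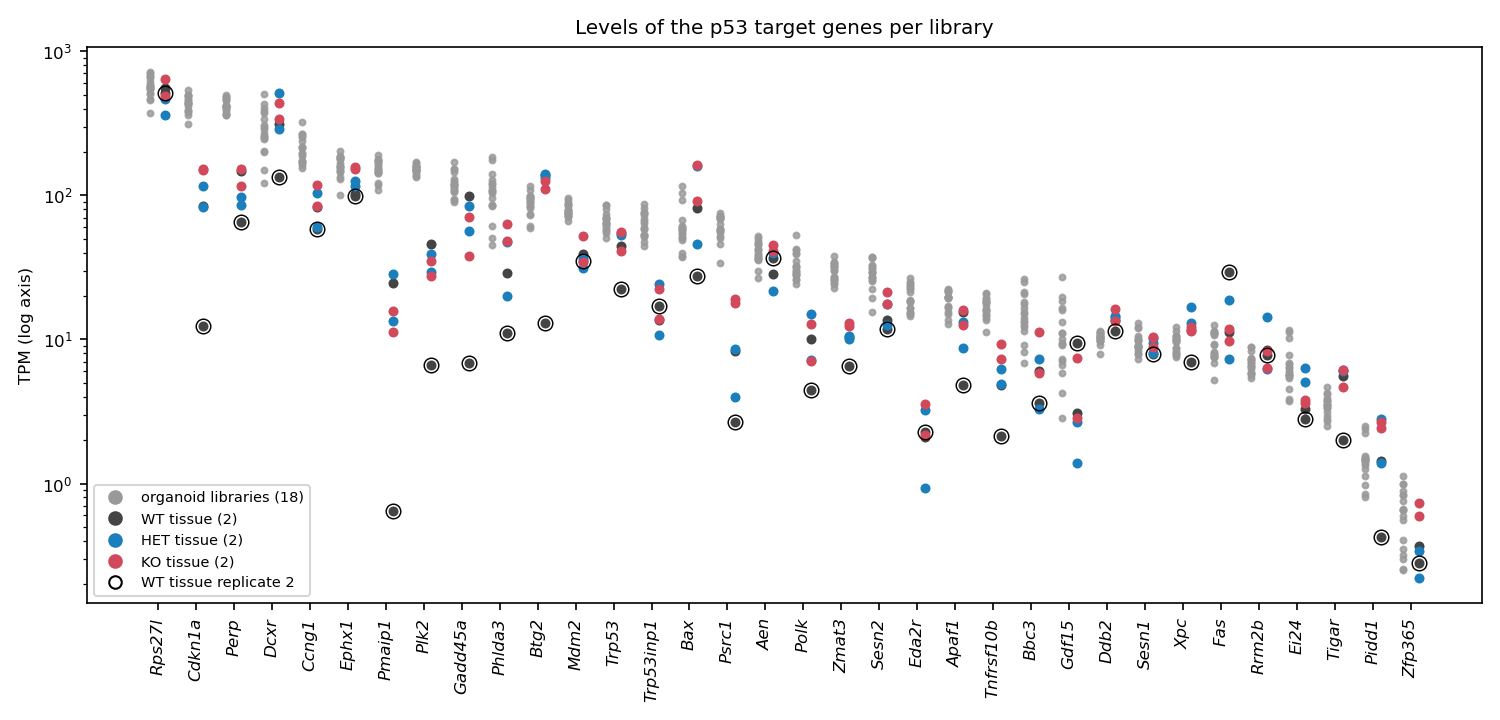
TPM of the 34 p53 targets in each organoid and each tissue library (points, log axis), ordered by their mean in organoids; circles mark tissue WT replicate 2. Cdkn1a, Perp and Mdm2 have all organoid points above all tissue points.

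In tissue no genotype comparison gave a called member. edgeR and DESeq2 each called 0 of 34 in HET against WT, KO against WT and KO against HET, and edgeR called 0% of 16753 genes higher or lower in each. At an unadjusted p under 0.05 there were 0 members in HET against WT (2.73% of all genes), 2 in KO against WT (1.92%) and 0 in KO against HET (0.579%). The 2 were Psrc1 (log2 change 1.59, 95% interval 0.07 to 3.11) and Tnfrsf10b (1.07), each with an adjusted p of 1. With 2 libraries a group, and a biological coefficient of variation of 0.502 against 0.214 in organoids, intervals were wide.

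Tissue WT replicate 2, with the seminal vesicle genes, was the low library for several members. Btg2 lay at 260.0 and 30.6 CPM in WT replicates 1 and 2, 222.6 and 250.8 CPM in HET and 224.3 and 219.3 CPM in KO. Cdkn1a lay at 107.3 and 19.5 CPM in WT, 88.9 and 146.9 CPM in HET and 178.9 and 203.2 CPM in KO. Fas lay at 9.69 and 32.2 CPM in WT, 13.7 and 6.09 CPM in HET and 10.1 and 9.22 CPM in KO, and so was highest in that library.

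KO tissue was above both WT libraries for Cdkn1a, with a log2 change of 1.59 (95% interval -0.28 to 3.46), and Trp53 gave 0.40 in HET and 0.38 in KO against WT with overlapping values. Mdm2 gave -0.50 in HET (-1.15 to 0.15) and 0.02 in KO against WT, and KO against HET gave -0.02 for Trp53, 0.70 for Cdkn1a and 0.52 for Mdm2. Zfp365 lay at 1.094 and 1.061 CPM in WT, 0.849 and 0.660 CPM in HET and 1.88 and 1.63 CPM in KO tissue, on 25 to 81 reads. The KO libraries were the highest and the HET libraries the lowest, without overlap, and the changes did not pass the test. The median of the 34 was 0.15, 0.35 and 0.40 in HET against WT, KO against WT and KO against HET, against 0.013, -0.010 and -0.016 over all genes. The first of these was below 0 in 3 of the 12 settings run, the main fit among them being above 0. Leaving out WT replicate 2 and HET replicate 1 left both genotypes without replicates, so a count of calls from that fit cannot show whether members differ.

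The pathway around the members was read from 3 further lists. The shares of all genes called in each comparison are those given above for the members. In organoids, the share of all genes at an unadjusted p under 0.05 was not worked out for HET or KO against WT. Among 26 p53 regulators and cofactors, Chek2, the checkpoint kinase that phosphorylates p53 after DNA breaks, rose in HET and KO in both media. Its means with DHT were 19.9 ± 0.591 CPM in WT, 28.1 ± 2.48 CPM in HET and 34.5 ± 1.62 CPM in KO (SD, n = 3). Without DHT they were 19.4 ± 1.77, 28.9 ± 3.23 and 34.1 ± 3.09 CPM. The log2 changes against WT with DHT were 0.50 in HET and 0.79 in KO (edgeR adjusted p = 0.00821 and 0.000239), and without DHT 0.57 and 0.81 (0.00259 and 0.000178), and all 4 calls held without any 1 library, though that in HET without DHT was lost when only the 2 groups compared were fitted.

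Without DHT, 3 regulators fell in HET against WT and 1 in KO against WT (3.29% and 1.98% of all genes). In HET these were Trp73, a p53 relative (log2 change -1.83, edgeR adjusted p = 0.00179), Cdkn2a, whose product ARF inhibits Mdm2 (-1.42, 0.0108), and Zfp385a, a p53 partner (-0.65, 0.0367). Trp73 also fell in KO (-1.37, adjusted p = 0.0202). Trp73 in HET kept its call without any 1 library. Its call in KO and those of Cdkn2a and Zfp385a were lost when only the groups compared were fitted. In KO it also lost it without KO replicate 1 or 2 or WT replicate 1 or 2, Cdkn2a lost it without HET replicate 1 or 2 or WT replicate 2, and Zfp385a without HET replicate 1 or 2 or WT replicate 1 or 2. With DHT edgeR called no fall among the regulators, and the 26 had medians within -0.08 and 0.06 in the 6 genotype comparisons. In KO against HET edgeR called 0 regulators in both media, with 5 and 4 of 26 at an unadjusted p under 0.05 (14.1% and 12.0% of all genes), and DESeq2 called 0 and 1.

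Of 17 other p53-induced genes, 15 were tested. In HET against WT with DHT, Dram1, a lysosomal protein of autophagy, fell (-0.40, edgeR adjusted p = 0.0215, lost without HET replicate 1 or 2 or WT replicate 1 or 2). Without DHT, Ckap2, a spindle protein, rose (0.84, 0.00984, lost without HET replicate 1 or WT replicate 2) and Dram1 fell (-0.66, 0.000488, kept without any 1 library), and both calls were lost when only those groups were fitted. In KO against HET, Thbs1, the matrix protein thrombospondin, rose in both media (0.92 and 0.73, adjusted p = 0.00166 and 0.00982), kept without any 1 library, though the call without DHT was lost when only those groups were fitted. Dram1 was also higher in KO than in HET (0.44 and 0.39, adjusted p = 0.0209 and 0.0467), calls that most omissions of a library ended. Between KO and WT, edgeR called 0 of 15 in both media, with 3 and 2 at an unadjusted p under 0.05, and DESeq2 called 1 and 0.

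The 20 cell cycle genes that p21 and the DREAM complex repress were read beside Cdkn1a, which in HET gave changes of 0.14 and -0.08 against WT. In HET against WT, 14 of 20 rose with DHT and 17 of 20 without (4.03% and 4.52% of all genes), 0 fell, and the medians were 0.65 and 0.86. In KO against HET, 11 of 20 fell in each medium (1.75% and 1.56% of all genes) and 0 rose (medians -0.59 and -0.54). In KO against WT 0 passed with DHT (1 at an unadjusted p under 0.05, 0 by DESeq2) and 1, Kif20a, rose without (0.39, edgeR adjusted p = 0.00750). The Kif20a call was lost without WT replicate 2 and when only those groups were fitted, while DESeq2 called 7 of the 20 without DHT. Of all genes, 2.53% rose in KO against WT with DHT and 2.83% without. In KO against WT without DHT, 12 of 20 were higher at an unadjusted p under 0.05, 19 of 20 were above 0 and the median was 0.31. Aurka, a mitotic kinase, had means of 22.2 ± 2.31, 37.8 ± 0.230 and 22.9 ± 0.317 CPM in WT, HET and KO with DHT and of 21.1 ± 1.28, 39.9 ± 1.06 and 25.3 ± 0.443 CPM without (SD, n = 3). Aurka rose in HET by 0.76 and 0.92 (adjusted p = 2.67e-05 and 3.35e-06), and Kif20a, a mitotic kinesin, by 0.64 and 0.85. Other early entries were Bub1b, a spindle checkpoint kinase, and Ccnb1, a mitotic cyclin, at 0.60 and 0.74 with DHT, and Plk1, a mitotic kinase, and Ccnb2 at 0.89 and 0.83 without.

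The counts of these cell cycle genes in KO against HET moved with the libraries used. With DHT the 11 became 6 to 10 without any 1 library, lowest without HET replicate 1 or KO replicate 1, and 18 when the 3 shallowest organoid libraries were left out (6.74% of all genes called). Without DHT the 11 became 5 to 10, lowest without HET replicate 2, and 0 when only those groups were fitted (0.185% of all genes called). The counts in HET against WT ran from 11 to 13 with DHT and from 16 to 17 without, when any 1 library was left out. When only the groups compared were fitted, every call with DHT was kept. Without DHT, those of Mki67, Foxm1, Mcm5, Cenpf and Rrm2 were lost (2.73% of all genes called). The HET libraries in which these genes were high also had the lowest stromal and highest leukocyte marker sums, whose part was not tested.

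Withdrawal called 1 of the 20 cell cycle genes, Rrm2, a ribonucleotide reductase subunit, lower in WT (-0.65, edgeR adjusted p = 0.00156) and in KO (-0.46, 0.0425, lost without any 1 library). In HET edgeR called 0, with 3 at an unadjusted p under 0.05 and 1 by DESeq2. Of the regulators and other p53-induced genes, edgeR called 0 on withdrawal. At an unadjusted p under 0.05 there were 2, 2 and 1 regulators and 2, 3 and 2 others in WT, HET and KO. DESeq2 called 1, 0 and 0 regulators and 2, 1 and 1 others, beside 2.607%, 1.909% and 1.701% of all genes. The 3 lists had 0 calls by edgeR and by DESeq2 in the interaction tests and in tissue. At an unadjusted p under 0.05, HET minus WT, KO minus WT and KO minus HET held 1, 0 and 0 regulators, 0, 2 and 0 other p53-induced genes and 1, 3 and 0 cell cycle genes. Tissue held 1 regulator in HET against WT, 2 and 1 other p53-induced genes in HET and KO against WT, and 0 cell cycle genes.

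**Figure D5:**
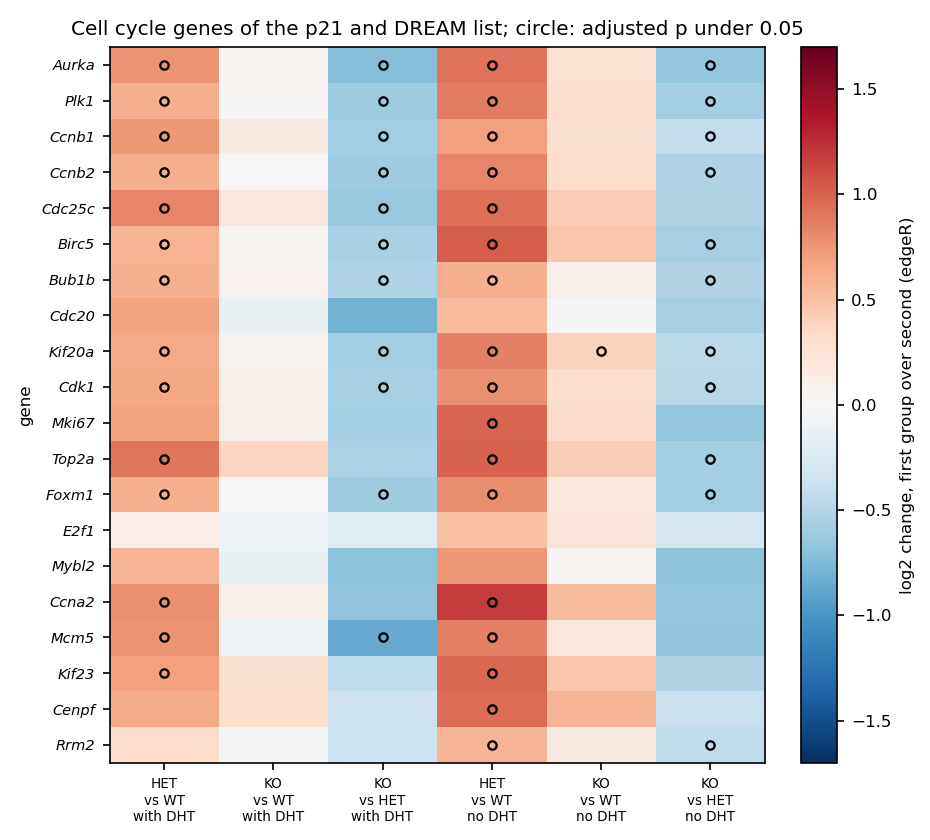
Log2 changes of the 20 cell cycle genes of the p21 and DREAM list (rows) in the 6 genotype comparisons of organoids (columns); a circle marks an adjusted p under 0.05. HET against WT carries 14 and 17 circles, all higher, and KO against HET 11 in each medium, all lower.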

How the data were processed

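RNA-seq was done on 18 organoid and 6 tissue libraries, grouped by genotype and medium from the sample titles. The deposited files give estimated counts and TPM for 116945 transcripts, per the file headers, and the submitters' processing notes name Salmon 0.13.1 as the tool. The build they name is hg38, but the identifiers are mouse. The index, trimming and strand settings are not given in the sources used here. Transcripts were assigned to genes with the GENCODE M21 map, and their estimated counts were added up and rounded. Transcripts without a gene in it (922, holding 0.2275% to 0.3266% of reads) were left out. Deposited TPM were summed in the same way and used only to compare levels between genes.

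The test was edgeR's (version 4.0.16, R 4.3.3; quasi-likelihood F-test, TMM, filterByExpr), with 1 mean per group, in 1 fit of all organoid libraries (15427 genes, 12 residual degrees of freedom) and 1 of all tissue libraries (16753 genes, 3 residual degrees of freedom). There were 15 comparisons. P-values were adjusted by Benjamini-Hochberg over all genes of a comparison, with a threshold of 0.05. SEs are the log2 change over the root of F. The scripts were tested on simulated counts. CPM use TMM-scaled library sizes. No 2 libraries were duplicates.

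The members and lists were chosen with earlier results of these data known. Trp53, Cdkn1a and Mdm2 were named in every comparison, each called member with its values, others by ranges with at most 3 examples of lowest p, and per list at most 4 called genes of lowest p. Alternatives were DESeq2 1.42.0, its size factors in edgeR, no filter, only the groups compared, a mitochondrial covariate, a replicate block and leaving out libraries. Samples that share a replicate number deviated together (correlations all over 0.1) in KO against HET without DHT (0.834, 0.398 and 0.89) and in KO withdrawal (0.518, 0.111 and 0.552). There the blocked fit also called 0 members, beside 3.45% and 0.758% of all genes. In tissue the same held for KO against HET (0.513 for each number) and KO against WT (0.164 for each), again with 0 members and 0% of all genes called by the blocked fit. Counts of 0 beside such low shares do not show whether pairing matters for the members. With 2 libraries a group, the 2 correlations are equal by construction. Figures were drawn with matplotlib 3.10.9. The result of 1 gene among the other p53-induced genes is not reported here.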

Additional observations from a re-analysis of the deposited data

How the results depend on the processing

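The number of members called depended on the setting, and so did the share of all genes called, given here in parentheses. In HET against WT with DHT the 2 members called (7.51%) became 6 with DESeq2 (10.04%), 1 without the low-count filter (3.54%), 5 with the replicate block (8.64%) and 11 with the mitochondrial covariate (20.9%). In KO against WT with DHT the 2 (4.11%) became 5 with DESeq2 (5.68%), 5 with the block (4.56%), 5 with only those groups (6.22%) and 9 with the covariate (10.9%). In KO against HET with DHT the 0 (3.54%) became 2 with DESeq2 (6.64%), 5 with the covariate (11.4%), 4 with only those groups (8.57%) and 3 when the 3 shallowest libraries were left out (6.74%), a setting chosen after seeing the data. Without DHT, HET against WT went from 3 (7.81%) to 1 without the filter (3.93%), 8 with the covariate (16.4%) and 0 with only those groups (2.73%). KO against WT went from 1 (4.803%) to 3 with DESeq2 (7.36%), 3 with the block (5.45%), 4 with the covariate (11.9%) and 0 with only those groups (1.38%). In KO against HET without DHT the 0 (2.92%) became 1 with DESeq2 (4.503%) and 4 with the covariate (9.43%), and in WT withdrawal the 0 (1.30%) became 5 with the covariate (12.7%). The cause of these moves was not tested. Leaving out each library gave 0 to 1 in HET against WT with DHT, 1 to 2 in KO against WT with DHT, 0 to 5 in HET against WT without DHT (5 without HET replicate 3), 0 to 1 in KO against WT without DHT, and 0 to 0 in the other organoid comparisons.

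Outside the comparisons named under processing, samples that share a replicate number did not all deviate together. Beyond the 3 counts given above, the block gave 4 in HET against WT without DHT (8.89% of all genes) and 0 elsewhere (at most 4.25% of all genes). Tissue counts were 0 under every setting that kept both libraries of each group, and the crossed pairing in HET against WT tissue also gave 0. Settings that left out tissue libraries left a group without replicates and cannot decide this. Depth limits Zfp365, with as few as 7 reads in WT with DHT replicate 1, and 2 libraries a group limit tissue.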
